A study of Mus musculus with 12 samples.

Results

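The comparison described here is between litters of ERBB3-dIE mice. It rests on 6 of the 12 libraries of the series: mice 1, 2 and 3, which the labels place in litter B, and mice 4, 5 and 6, which they place in litter A. All 6 carried the genotype label ERBB3-dIE, and every library came from mucosa scraped off the ileum of a mouse at baseline, with no treatment named. The same litters also gave 6 libraries labelled Erbb3-FF, with mice 1 and 2 in litter B and mice 3 to 6 in litter A, and these are used only to set the litter difference beside that in the other genotype. The labels give genotype, litter, tissue and mouse number. They do not spell out dIE or FF, and they name no age, sex, strain or driver of a deletion. Each arm of the comparison is 1 litter, so litter cannot be told apart from anything else that its mice shared, such as dam, cage or day of collection. The p-values measure only the spread between these mice.

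Expression was given as TPM (transcript abundance per gene length), which scales every library to the same total, for 55891 genes. Of these, 12874 had at least 1 TPM in at least 3 of the 6 ERBB3-dIE libraries and were tested. Differences are given as litter B minus litter A on the log2(TPM + 0.5) scale, tested with limma with Benjamini-Hochberg adjustment over all 12874 genes and a threshold of 0.05. Since reads per library cannot be read from TPM, the depth is unknown.

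As background, the ileal epithelium renews itself from stem cells in the crypts, and its enterocytes mature as they move up the villus, where they digest and absorb sugars, peptides and fat. Ileal enterocytes also take bile acids back from the gut lumen. The bile acid receptor FXR, encoded by Nr1h4, responds to them by switching on Fgf15, a hormone that lowers bile acid synthesis in the liver. Many enterocyte genes differ in level along the gut, and many respond to microbes, diet and cytokines such as interferons. ErbB3, the receptor the mouse line is named for, is activated by neuregulins and works in pairs with its relatives in the ErbB family.

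The 12 libraries held between 12344 and 13364 genes at 1 TPM or more. Mitochondrially encoded transcripts took 7.94% to 15% of the TPM in litter B and 16.9% to 22.1% in litter A of the ERBB3-dIE mice, with no overlap. Ribosomal sequence took 10.2% and 10.8% of the TPM in Erbb3-FF mice 5 and 6 of litter A, and 0.591% to 1.62% in every other library. Correlations of log2 levels between libraries lay between 0.934 and 0.945 within litter B, between 0.939 and 0.940 within litter A and between 0.883 and 0.919 across the litters. Epithelial markers were present throughout: Epcam lay between 1189.6 and 1868 TPM and Cdh1 between 183 and 227 TPM in the ERBB3-dIE libraries. The upper intestine markers Gata4 and Onecut2 reached at most 0.513 and 0.115 TPM, and the neuronal and glial markers Elavl4, S100b and Sox10 at most 0.203, 0.242 and 0.197 TPM. The neuronal marker Uchl1 did not follow these: its TPM in ERBB3-dIE litter B were 0, 7.15 and 0, in the order of mice 1, 2 and 3, and in litter A 1.02, 4.54 and 0.264. The mean log2 level of the 3 tested neuronal genes was 2.29 in mouse 2 and 0.55 to 1.51 in the other 5. ERBB3-dIE mice 4 and 5 stood apart in smooth muscle transcripts: Acta2, smooth muscle actin, was at 30.6 and 29.2 TPM there and at 1.47 TPM in mouse 6 of the same litter, against 0.924, 0.721 and 0.987 TPM in litter B. The library labelled Erbb3-FF mouse 3, litter A, also stood apart. It correlated at 0.937 to 0.947 with the Erbb3-FF libraries of litter B but at 0.913 to 0.915 with the other 3 of its own labelled litter. It is kept as labelled, and results that rest on it are given with and without it.

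Erbb3 itself (ENSMUSG00000018166) does not check the genotype label, since its gene-level TPM was not reduced in ERBB3-dIE mice. It was at 162, 206 and 156 TPM in mice 1, 2 and 3 of litter B and at 105, 104 and 120.5 TPM in mice 4, 5 and 6 of litter A. The litters did not overlap, with means of 175 ± 27.5 and 110.0 ± 9.1 TPM (SD over 3 mice). On the log2 scale they differed by 0.66 (SE 0.15, 95% interval 0.31 to 1.01). The limma adjusted p was 0.0495, and the call was lost in 5 of the 6 fits that left out 1 mouse. An exact 2-sided permutation test gave p = 0.1, the smallest that 3 against 3 mice can give. Pmp22 (ENSMUSG00000018217), the junction-associated membrane protein gene named in the title of the series, was at 149, 135 and 217 TPM in litter B and 250.2, 226 and 200.3 TPM in litter A. Its litters overlapped, and the log2 difference of −0.45 did not pass (adjusted p = 0.204; exact permutation p = 0.2).

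Across all tested genes, 531 were higher in litter B (4.12%) and 314 were lower (2.44%). All 845 had ranges that did not overlap between the litters, and 326 of the higher and 254 of the lower differed by more than 1 on the log2 scale. Ranges without overlap, called or not, were found for 2210 genes with litter B on top (17.2%) and for 2022 with litter B below (15.7%). The list counts given below are to be read beside these shares. The median over all tested genes was −0.04. When the TPM were rescaled without mitochondrial and ribosomal sequence, this median moved to −0.17 and the calls to 400 higher and 520 lower, so the balance of directions depended on that scaling. Each of the 844 calls that could be fitted there kept its sign.

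The number of calls also depended on single mice. Without mouse 1, 42 genes were called higher and 42 lower. Without mouse 2 the counts were 49 and 42, without mouse 4 they were 81 and 51, and without mouse 5 they were 28 and 17. They were 697 and 1029 without mouse 3 and 429 and 224 without mouse 6. With mice 4 and 5, those rich in smooth muscle transcripts, both left out, 11 and 16 genes were called, of which 7 and 14 were among the original calls. With the mean level of the smooth muscle list as a covariate, 6 and 7 genes were called. Every original call kept its sign in all of these fits. Of the 151 genes called and given by name under the naming rule, 139 lost the call in at least 1 of the 6 fits without 1 mouse. The 12 that kept it in all 6 were Fabp6, Rbp2, Bnip3, Cyp2d34, Mir684-1, Rps3a2, Rps3a3, Tpm3-rs7, Pcna-ps2, H2af-ps2, Gm5641 and Gm44379. Mir684-1, Pcna-ps2, H2af-ps2, Gm5641, Gm44379 and Cyp2d34 entered the test only through the litter in which they are high, being under 1 TPM in every mouse of the other, so that their kept calls support nothing further. Gip, Enpp7 and Slc2a2 likewise entered only through litter B. B3galt5, Scarb1, Fn1, Col1a1, Nid1, Lamb1, Tgfb1i1, Cyp2c66, Etv4 and Pik3r3 entered only through litter A. Rps3a2, Rps3a3 and Tpm3-rs7 reached 1 TPM in some mice of litter A but not in all, so they too passed the filter only with litter B. So did Leap2, Rdh7 and Apol9b. Car1, Retnlb, Slc6a14, St6galnac1, Fa2h, Sptssb, Fut2, Nox1, Anxa1, Saa3, Col4a1 and Aqp4, among others, passed it only with litter A. The calls of all these genes, and the list counts that include them, are limited in the same way. The calls given below are therefore to be read with their per-mouse values.

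**Figure D1:**
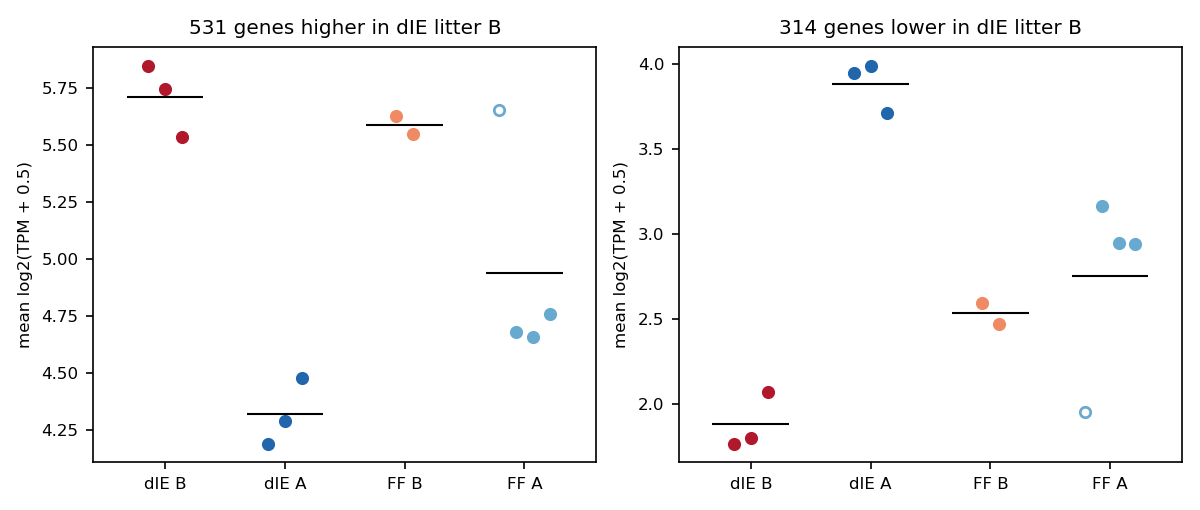
Mean log2(TPM + 0.5) of the 531 genes called higher (left) and the 314 called lower (right) in litter B, a point per library, with a bar at each group's mean. The ERBB3-dIE libraries differ by construction, and the open circle, the library labelled Erbb3-FF mouse 3, litter A, lies at 5.65 and 1.95, beside litter B.

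The most abundant gene that differed was Fabp6 (ENSMUSG00000020405), the bile acid carrier of the ileal enterocyte. It was at 36208, 27009.7 and 30543 TPM in mice 1, 2 and 3 of litter B and at 6459.8, 6826 and 6532 TPM in mice 4, 5 and 6 of litter A. The 3 litter A mice lay close together, and all 3 litter B mice were far above them. The mean was 4.73 times higher in litter B (log2 difference 2.23, SE 0.18, limma adjusted p = 0.00393), and the gene took 3.13% of all TPM there against 0.661% in litter A. The difference was 2.25 without mice 4 and 5.

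Targets and transporters of the same bile acid circuit were higher too. Fgf15, the FXR-induced hormone, was at 97.6, 165 and 48.5 TPM in litter B and 9.97, 14.5 and 12.3 TPM in litter A (log2 difference 2.87, adjusted p = 0.0213). Nr0b2, which encodes the FXR-induced repressor SHP, was at 56.6, 29.4 and 16.5 TPM against 1.9, 3.23 and 3.83 TPM (3.18, adjusted p = 0.0204). Neither gene overlapped between litters, and the spread within litter B was wider than that within litter A for both. Slc51a and Slc51b, the subunits of the exporter that passes bile acids to the blood, differed by 1.35 and 1.19. Outside that circuit, Amn and Cubn, the receptor pair for vitamin B12 bound to intrinsic factor, differed by 1.63 and 1.35, and the transcription factor gene Osr2 by 0.89.

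Not all of the circuit moved. The bile acid importer gene Slc10a2 was at 85.9, 131 and 105 TPM in litter B and 70.7, 48.2 and 111 TPM in litter A, with overlap (log2 difference 0.54, adjusted p = 0.313). Nr1h4, the gene for FXR, was at 94.7, 87.4 and 99.3 TPM against 112, 76.8 and 96.9 TPM (−0.01, 95% interval −0.39 to 0.38). The exporter gene Abcc3 was lower in litter B, at 39.6, 34 and 44.8 TPM against 76, 80.6 and 55.6 TPM (−0.82). The list of ileal bile acid handling also holds genes outside this circuit, such as Amn, so its count and median are not of the circuit alone. Of its 14 tested genes, 8 were called higher and 1 lower. Their median difference was 1.27, beside −0.04 over all genes, and 0.88 without mice 4 and 5.

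**Figure D2:**
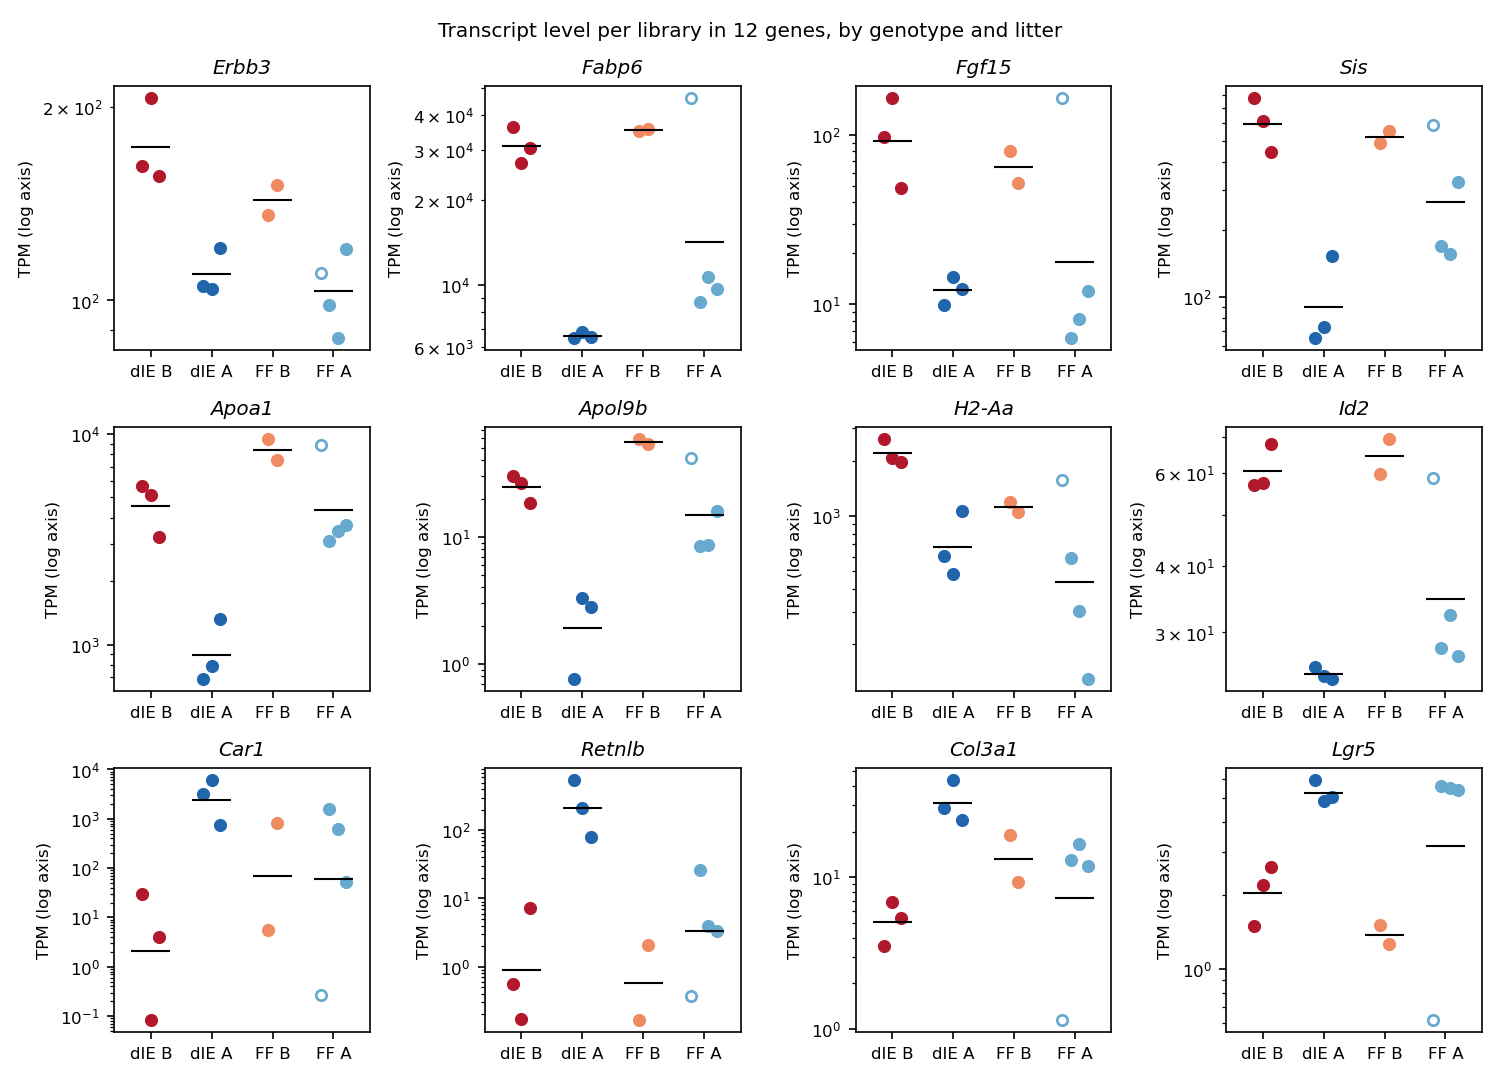
TPM of 12 genes on log axes, a point per library, with a bar at each group's geometric mean; columns are ERBB3-dIE litter B, ERBB3-dIE litter A, Erbb3-FF litter B and Erbb3-FF litter A, and the open circle is the library labelled Erbb3-FF mouse 3. Fabp6 lies between 27009.7 and 36208 TPM in ERBB3-dIE litter B and between 6459.8 and 6826 TPM in litter A, while Retnlb, Car1 and Col3a1 run the other way.

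Sugar digestion and uptake showed the largest median of the nutrient lists. Of 12 tested members 8 were called higher and none lower, 11 had litter B wholly above litter A, and the median difference was 1.75, or 1.18 without mice 4 and 5. The shares over all tested genes were 4.12% called higher and 17.2% with litter B wholly above. Sis, the brush border sucrase-isomaltase, was at 777, 612 and 448 TPM in litter B and 65.1, 73.3 and 152 TPM in litter A, a 6.32-fold difference of means (log2 2.72, SE 0.36, adjusted p = 0.0175). Mouse 6 was the highest of litter A and still below a value of 448 TPM, the lowest of litter B. The maltase gene Mgam was at 555, 523 and 386 TPM against 196, 184 and 280.1 TPM. Khk, which encodes the kinase that starts fructose breakdown, was at 249, 191 and 157 TPM against 36.1, 48 and 63.9 TPM (log2 2.01). The fructose transporter gene Slc2a5 was at 36.7, 23.7 and 22 TPM against 4.76, 6.07 and 11.2 TPM (1.88). Slc2a2, the basolateral glucose and fructose transporter gene, was low everywhere, at 4.99, 3.65 and 1.19 TPM against 0, 0.224 and 0.0529 TPM (2.53).

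Peptide digestion and uptake followed, with 10 of 19 tested members called higher, none lower, and a median of 1.3 (0.81 without mice 4 and 5). Mme, the membrane peptidase neprilysin, was at 23.2, 26.4 and 13.8 TPM in litter B and 1.77, 1.85 and 3.28 TPM in litter A (log2 2.94, adjusted p = 0.0106). Ggt1, the gamma-glutamyl transferase gene, was at 498, 434 and 331 TPM against 106, 103 and 177 TPM (1.73). Slc15a1, which imports small peptides, differed by 1.42 and the aminopeptidase gene Xpnpep2 by 1.54. In each of these genes mouse 6 was the highest of litter A.

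In lipid absorption 16 of 24 tested members were called higher and 1 lower, with a median of 1.11 (0.76 without mice 4 and 5). Apoa1, a major apolipoprotein of lymph particles, was at 5652, 5157 and 3235 TPM in litter B and 685, 793 and 1322 TPM in litter A (log2 2.35, SE 0.32, adjusted p = 0.0175). Apoc3, its neighbour in the apolipoprotein gene cluster, was at 270.0, 350.2 and 164 TPM against 17.7, 27.9 and 31.9 TPM (3.29). Apoa4, also of that cluster, was at 31.6, 30.4 and 14.4 TPM against 6.78, 1.49 and 8.89 TPM and did not pass (2.25, adjusted p = 0.0793). Fabp2, the intestinal fatty acid carrier gene, was at 2920.5, 2491 and 2467 TPM against 1006, 1059 and 1172 TPM (1.28, adjusted p = 0.0105). The loading protein Mttp, which puts fat onto apolipoprotein B, differed by 1.12, the cholesterol-esterifying enzyme Soat2 by 1.38 and the regulator Creb3l3 by 1.12. The exception was Scarb1, a lipoprotein receptor gene, at 0.648, 0.903 and 0.953 TPM in litter B and 3.42, 3.23 and 3.08 TPM in litter A (−1.49, adjusted p = 0.017).

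Retinoid handling had 5 of 11 tested members higher and 1 lower, with a median of 0.98. Rbp2, which carries retinol in the enterocyte, was at 291, 252 and 181 TPM against 59.1, 40.1 and 50.1 TPM (log2 2.26, adjusted p = 0.00886). The retinol dehydrogenase gene Rdh7 differed by 2.96 and the carotene-cleaving enzyme gene Bco1 by 1.55. Isx, a transcription factor that holds Bco1 in check, was higher as well, at 172, 161 and 147 TPM against 88.2, 101 and 101 TPM (0.72). Drug-metabolising enzymes split: 9 of 34 were higher, led by Cyp3a11 at 104, 113 and 31.8 TPM against 5.17, 10.2 and 6.22 TPM (3.29), and 5 were lower, led by Cyp2c66 (−2.23) and Ugt1a7c (−1.7). Among PPAR targets Angptl4, an inhibitor of lipoprotein lipase, was higher by 2.05. In that list 3 of the 24 tested members were higher and 1 lower, beside 4.12% and 2.44% of all tested genes.

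Structural genes of the brush border differed less. Of 18 tested members 3 were called higher, Cobl (0.9), Espn (0.85) and Myo1a (0.83), with a median of 0.51 that was 0.22 without mice 4 and 5. The villin gene Vil1 was at 989, 741 and 777 TPM in litter B and 520.2, 480.2 and 676 TPM in litter A, without overlap but short of the threshold (0.58, adjusted p = 0.105). Krt20, a keratin of mature enterocytes, overlapped, at 875, 798 and 1039 TPM against 895, 763 and 823 TPM. Among villus tip genes 5 of 23 were higher, beside 4.12% of all tested genes. They included the alkaline phosphatase gene Alpi (1.32), the purine-degrading enzyme gene Xdh (1.04) and Btnl1 (0.97), which supports intraepithelial lymphocytes. The median of that list was 0.27. Regulators called higher included Id2, a target of BMP signals, at 56.9, 57.3 and 68.1 TPM against 25.8, 24.9 and 24.5 TPM (1.26, limma adjusted p = 0.00841). The villus transcription factor gene Maf (1.05) and the epithelial hedgehog ligand gene Ihh (0.97) were others. The BMP and hedgehog list was split, with 3 of 16 tested members higher, 2 lower and a median of 0.17. Its lower members were Bmp5 (−1.61) and Foxf1 (−1.39), which entered the test only through litter A. No direction of BMP or hedgehog signalling is read from these genes.

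**Figure D3:**
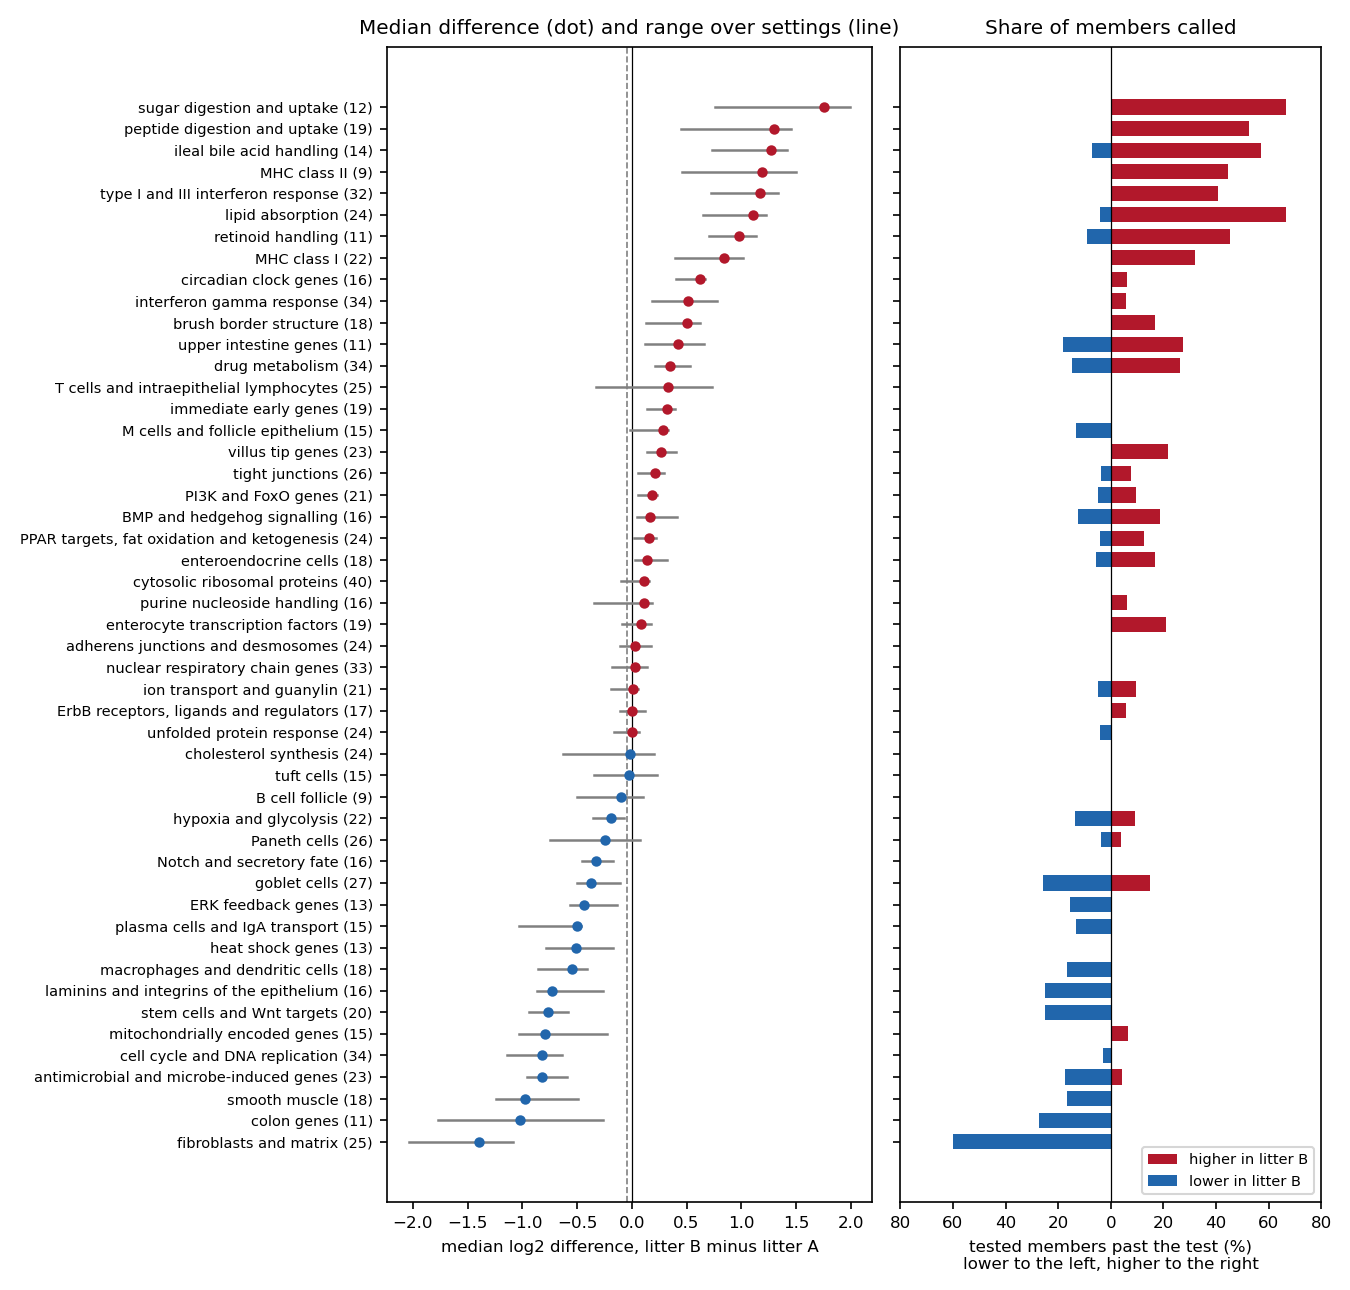
Gene lists with at least 9 tested members. The left panel gives the median log2 difference of litter B minus litter A (dot) and its range over the 18 alternative settings (line), with the median of all genes as a dashed line at −0.04. The right panel gives the share of members called higher or lower, so that sugar digestion has a median of 1.75 and fibroblast and matrix genes a median of −1.39.

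Antiviral genes of the type I and III interferon response were higher in litter B: 13 of 32 tested members were called higher and none lower, and 20 had litter B wholly above litter A. Beside these counts stand 4.12% of all tested genes called higher and 17.2% with litter B wholly above. The median of the interferon list was 1.17, and 0.81 without mice 4 and 5. These genes are switched on when interferons bring the factor ISGF3 to a short motif in their promoters. Apol9b, an interferon-induced apolipoprotein L gene, was at 30.4, 26.6 and 18.5 TPM in litter B and 0.756, 3.31 and 2.83 TPM in litter A (log2 3.32, SE 0.44, adjusted p = 0.0175). Its near copy Apol9a was at 46.1, 24.3 and 27.6 TPM against 7.41, 7.48 and 9.13 TPM (1.91). The split of reads between those copies is uncertain. Rtp4 was at 54.8, 26.2 and 24.5 TPM against 5.15, 6.68 and 5.87 TPM (2.39), with mouse 1 highest. The antiviral effector gene Ifit1 was at 58.8, 32.9 and 42.2 TPM against 15.2, 12.2 and 19.96 TPM (1.46), and Irf7 and Irf9, transcription factors of the response, differed by 1.37 and 0.84.

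Genes more often tied to interferon gamma were mostly short of the threshold. Of 34 tested members 2 were called higher, near the share over all tested genes (4.12%), and the median was 0.51. Gbp6, an immunity GTPase gene, was at 89.99, 48.2 and 77.8 TPM in litter B and 22.9, 17.5 and 34.2 TPM in litter A (1.52, adjusted p = 0.0429). Ido1, which breaks down tryptophan, was at 208, 142 and 224 TPM against 80.9, 59.3 and 100.1 TPM (1.26). T cell and intraepithelial lymphocyte genes had 0 of 25 members called, with 20 positive differences and a median of 0.33 that changed sign in at least 1 alternative setting, and mean log2 levels of the list that overlapped, at 3.51, 2.30 and 3.45 in litter B and 2.75, 2.54 and 3.18 in litter A.

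Antigen presentation genes were also higher. In MHC class II, which shows peptides to helper T cells, 4 of 9 tested members were called, all higher. H2-Aa was at 2623, 2075 and 1959 TPM against 607, 484 and 1067 TPM (1.7, SE 0.3, adjusted p = 0.0321). H2-Ab1 differed by 1.66, H2-Eb1 by 1.51 and Cd74, the chaperone of class II molecules, by 1.24. Mouse 6 lay between its litter mates and litter B in all 4, and the median of 1.19 was 0.66 without mice 4 and 5. In MHC class I 7 of 22 were higher and none lower, with a median of 0.84. The nonclassical H2-T23 was at 612, 451 and 470.1 TPM against 123, 174 and 252 TPM (1.52), and B2m, the shared light chain, at 4657, 3164 and 3719.9 TPM against 1679, 1496 and 2243 TPM (1.09). Class I genes are close relatives of each other, so how reads were shared among them is uncertain. Of 18 tested macrophage and dendritic cell markers 3 were lower in litter B and none higher. Their mean log2 level was 2.60 to 2.74 in litter B and 3.07 to 3.35 in litter A, while the summed TPM of the list overlapped, at 331 to 426 and 311 to 385 TPM. The part of these cells in the class II values was not tested.

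Promoter sequences are shown for called members of these lists because the lists share response motifs. The 250 bases before each gene's start were read from RefSeq (GRCm38.p6, not the build of the expression table) and searched on both strands. The capitals mark the interferon-stimulated response element core, GAAANNGAAA or its reverse complement, in the first 3 and the Y box CTGATTGG, a motif of MHC class II promoters, in the last, each 5′ to 3′ on the gene's strand.
Apol9b, chr15:77729016-77729075, plus strand: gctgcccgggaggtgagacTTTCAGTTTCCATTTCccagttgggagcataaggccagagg
Ifit1, chr19:34640779-34640838, plus strand: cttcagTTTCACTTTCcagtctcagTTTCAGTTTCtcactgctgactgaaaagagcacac
H2-T23, chr17:36032791-36032850, minus strand: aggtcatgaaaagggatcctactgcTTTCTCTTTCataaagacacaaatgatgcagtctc
H2-Aa, chr17:34287842-34287899, minus strand: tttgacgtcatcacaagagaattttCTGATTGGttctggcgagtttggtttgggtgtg
The Apol9b run holds overlapping matches, and Ifit1 holds a pair of separate ones. The core was found in 14 of the 24 type I and III interferon members with a promoter entry (58.3%), in 11 of 20 interferon gamma members (55%) and in 3 of 18 MHC class I members (16.7%), beside 313 of 9415 tested genes (3.32%) and 978 of all 32851 promoter windows (2.98%). Within the type I and III list it was in 4 of the 10 members called higher and in 10 of the other 14. In MHC class I it was in 3 of the 6 called higher and in 0 of the other 12. The Y box was in 2 of 6 MHC class II members, H2-Aa and H2-Eb1, which were the 2 called members with a promoter entry, and in 6.64% of tested genes. A match is a description of these letters and not a site of binding.

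Goblet cell genes moved in both directions. Of 27 tested members 4 were higher and 7 lower in litter B. Among secreted products of goblet cells, Clca1 was at 12863, 14415 and 9378 TPM in litter B and 3748, 3699 and 3055 TPM in litter A (log2 1.79, adjusted p = 0.0155), Tff3 at 13838, 10716 and 9014 TPM against 4587, 4619 and 4917 TPM (1.23), and Zg16 and Fcgbp differed by 1.23 and 1.44. The mucin gene Muc2 overlapped between litters, at 738, 738 and 504 TPM against 981, 762 and 827 TPM (−0.39, adjusted p = 0.248). Lower in litter B were Reg4, at 694, 439 and 764 TPM against 2252, 2689.8 and 1485 TPM (−1.76), and Spink4, at 5787, 4024 and 6456 TPM against 13247, 10925 and 10961 TPM (−1.13). St6galnac1, which adds sialic acid to mucin chains, was at 0.115, 3.83 and 0 TPM against 62.6, 15.9 and 24.2 TPM (−4.74, adjusted p = 0.0366).

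Several of the widest falls in litter B were in genes best known from the large intestine or from contact with microbes. Car1, a carbonic anhydrase of the colon, was at 29.7, 0.0817 and 3.99 TPM in mice 1, 2 and 3 and at 3119, 6107 and 762 TPM in mice 4, 5 and 6. Values spread widely within both litters without overlapping (log2 difference −9.15, SE 1.45, adjusted p = 0.0257). Retnlb, a goblet cell protein with antibacterial action, was at 0.555, 0.17 and 7.21 TPM against 547, 215 and 78.5 TPM (−6.9, adjusted p = 0.0232). B3galt5, a glycosyltransferase gene, was at 0.32, 0.217 and 0.212 TPM against 19.98, 7.05 and 3.97 TPM (−3.56). These 3 were the called members of the 11 tested colon genes, whose median was −1.02 and −0.50 without mice 4 and 5.

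Fut2, which makes fucosylated glycans on the epithelium, was at 0.876, 0.972 and 6.85 TPM in litter B and 84.4, 23.3 and 40.8 TPM in litter A (−4.15, adjusted p = 0.0324). Nox1, an epithelial oxidase gene, was at 0.145, 0.229 and 2.68 TPM against 16.2, 9.37 and 11.5 TPM (−3.46). Sprr2a1, a small proline-rich protein gene, was abundant and differed less, at 206, 173 and 158 TPM against 485, 431 and 369 TPM (−1.26). With Retnlb these were the 4 called lower of 23 antimicrobial and microbe-induced genes, of which 1, Zg16, was higher, and the median of that list was −0.82. In Retnlb, Fut2, Nox1 and Slc6a14 mouse 3 was the highest of litter B. Slc6a14, an amino acid transporter gene, was at 0.14, 0.173 and 5.24 TPM against 107, 55.9 and 51.1 TPM (−5.65).

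Further large falls among single genes included Fa2h (−4.38), Sptssb (−4.01), St6galnac6 (−3.73) and Cyp2d34 (−4.21). Fa2h and Sptssb act in sphingolipid synthesis. Cyp2d34, a cytochrome P450 gene, was at 0.259, 0.434 and 0.541 TPM in litter B and 19.9, 23.6 and 8.98 TPM in litter A (limma adjusted p = 0.00613). It entered the test only through litter A, so the call it kept in all 6 fits without 1 mouse supports nothing further. The acute-phase gene Saa3 was at 2.18, 0.311 and 1.69 TPM against 25.3, 18.2 and 22.4 TPM (−3.72), and Anxa1, a calcium-dependent membrane binder that damps inflammation, at 0.638, 1.81 and 1.22 TPM against 12.3, 31.4 and 30.6 TPM (−3.82). Among large rises were Bst1 (3.75), Leap2 (3.67), Plb1 (3.42) and Enpp7 (3.33). Leap2 encodes a circulating antagonist of the ghrelin receptor, and Plb1 and Enpp7 encode brush border enzymes that digest lipids. Acta1, the skeletal muscle actin gene, was at 437, 229 and 172 TPM against 12.5, 25 and 44.1 TPM (3.4), the reverse of the smooth muscle actin Acta2.

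Matrix genes were lower in litter B. Of 25 tested fibroblast and matrix genes 15 were lower in litter B and none higher, with a median of −1.39 that stayed at −1.19 without mice 4 and 5. The collagen gene Col3a1 was at 3.55, 6.88 and 5.36 TPM in litter B and 28.6, 43.9 and 23.9 TPM in litter A (log2 −2.5, SE 0.3, adjusted p = 0.0161). Col1a1 was at 0.394, 0.847 and 0.622 TPM against 3.58, 4.92 and 2.75 TPM (−1.91), and Fn1, fibronectin, at 0.602, 0.542 and 0.247 TPM against 4.95, 3.58 and 3.27 TPM (−2.2). Col1a1 and Fn1 entered the test only through litter A. Adamdec1, a protease of lamina propria cells, was at 8.42, 14.1 and 10.1 TPM against 54.1, 69.2 and 37.8 TPM (−2.24). For these genes mouse 6, whose Acta2 was near the litter B level, lay nearer to mice 4 and 5 than to litter B. In bulk tissue fewer cells of a type and less RNA per cell cannot be told apart.

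Basement membrane genes were lower too. Col4a1, Lamb1 and Nid1 were lower by −2.11, −1.46 and −1.46, and 4 of the 16 tested laminin, integrin and basement membrane genes were lower with none higher. Among macrophage and dendritic cell genes 3 of 18 were lower: C1qa (−0.81), Cd14 (−1.44) and the lysozyme gene Lyz2 (−1.02). Of the 18 smooth muscle genes 3 were lower, Smtn (−1.18), Tgfb1i1 (−1.53) and Csrp1 (−0.88), and 10 had litter B wholly below litter A. Over all tested genes 2.44% were called lower and 15.7% had litter B wholly below. The smooth muscle median of −0.98 was −0.49 without mice 4 and 5. Acta2 and Tagln, at their highest in mice 4 and 5, did not pass (adjusted p = 0.115 and 0.109). The blood endothelial list had 0 of 6 genes called, with a median of −0.90 and 4 wholly below, beside 15.7% of all tested genes. Some genes on the glia, neuron and mesothelium lists were higher. Of 3 tested genes on the enteric glia list Erbb3 and the nucleotidase gene Entpd2 (0.76) were higher, of 3 on the neuronal list the granule protein gene Scg2 was higher (1.32, adjusted p = 0.0361), and of 2 on the mesothelial list Upk1b was higher. Erbb3 and Scg2 are also expressed in the epithelium, and the glial and neuronal markers S100b, Sox10 and Elavl4 were nearly absent. These genes are therefore not read as a measure of those cells.

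Crypt genes were lower in litter B. Of 20 tested stem cell and Wnt target genes 5 were called lower and none higher, 12 had litter B wholly below litter A, and the median was −0.77 (−0.80 without mice 4 and 5). The shares over all tested genes were 2.44% called lower and 15.7% with litter B wholly below. Lgr5, the stem cell receptor gene, was at 1.5, 2.21 and 2.62 TPM in litter B and 5.93, 4.87 and 5.05 TPM in litter A (log2 −1.17, adjusted p = 0.0355). Cd44 was at 3.78, 3.91 and 6.96 TPM against 19.2, 13.5 and 13.2 TPM (−1.58), and Aqp4 at 0.91, 0.995 and 2.54 TPM against 11.4, 6.07 and 5.32 TPM (−2.05). Ephb2 and Prom1 differed by −1.34 and −1.27. Olfm4, a marker of crypt base cells, was at 64.8, 71.9 and 151 TPM against 174, 157 and 207 TPM and did not pass (−1.0, adjusted p = 0.114). Mouse 3 was the highest of litter B in each of these genes.

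Genes of cell division showed the same direction in every one of the 34 tested members, but only Gins2, a DNA replication factor gene, passed (−1.11, adjusted p = 0.0311). That 1 call of 34 is near the share called lower over all tested genes (2.44%). The median was −0.82, and 16 had litter B wholly below litter A, beside 15.7% of all tested genes. The proliferation marker Mki67 was at 7.01, 9.11 and 16.2 TPM against 28.2, 22.9 and 23.7 TPM, short of the threshold (−1.25, adjusted p = 0.0575). The mean log2 level of the list was 3.21, 3.19 and 4.11 in litter B and 4.35, 4.23 and 4.46 in litter A, so mouse 3 lay nearer to litter A than to its own litter mates.

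**Figure D4:**
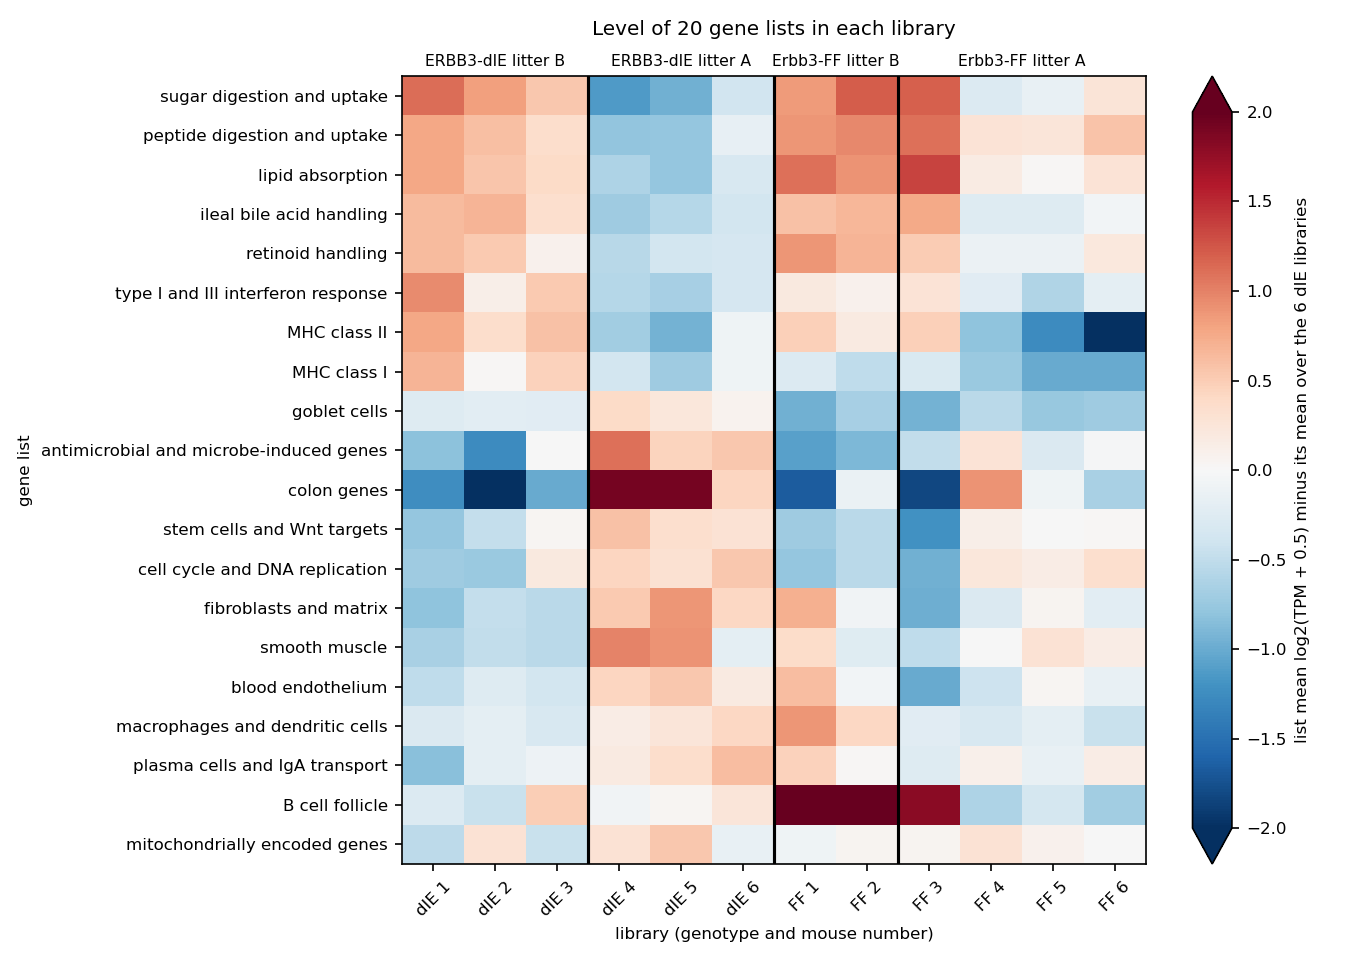
Mean log2(TPM + 0.5) of the tested members of 20 gene lists in each of the 12 libraries, shown as the difference from the mean over the 6 ERBB3-dIE libraries; the colour scale stops at 2 on either side. The digestion, absorption and type I and III interferon lists are high in ERBB3-dIE mice 1 to 3 and the crypt and matrix lists in mice 4 to 6, and the library labelled Erbb3-FF mouse 3 has the colours of litter B for the digestion lists.

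Among the steepest differences were those in gene copies that were present in 1 litter and nearly absent in the other. Rps3a2 (ENSMUSG00000062611) and Rps3a3 (ENSMUSG00000059751) are annotated as processed pseudogenes, which are reverse-transcribed and reinserted copies, here of the ribosomal protein gene Rps3a1. Rps3a3 was at 216, 238 and 246 TPM in litter B and 1.02, 1.2 and 0.882 TPM in litter A (log2 7.26, SE 0.13, adjusted p = 6.71e-06). Rps3a2 was at 201, 189 and 249.9 TPM against 0.882, 0 and 1.37 TPM (7.61). Both copies passed the filter only with the values of litter B, so their calls add little to these values. Their parent Rps3a1 was lower where the copies were present, at 618, 611 and 728 TPM in litter B and 876, 905 and 910.3 TPM in litter A. Tpm3-rs7 was at 76.2, 64 and 90.1 TPM against 0.756, 1.03 and 1.18 TPM, and its parent Tpm3, a tropomyosin gene, at 141, 134 and 153 TPM against 247, 199.6 and 241 TPM. In both families each ERBB3-dIE mouse with the copy had less of the parent than each mouse without it.

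The copies are nearly identical to their parents, as a stretch of the coding sequence shows (bases 579 to 668 of the 795 coding bases of Rps3a1, GENCODE transcripts on GRCm38). Capitals mark, in Rps3a1, the bases that differ in either copy and, in each copy, the bases that differ from Rps3a1.
Rps3a1: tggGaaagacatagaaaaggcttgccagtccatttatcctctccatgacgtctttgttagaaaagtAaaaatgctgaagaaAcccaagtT
Rps3a2: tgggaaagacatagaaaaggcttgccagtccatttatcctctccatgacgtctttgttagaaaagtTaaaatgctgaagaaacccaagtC
Rps3a3: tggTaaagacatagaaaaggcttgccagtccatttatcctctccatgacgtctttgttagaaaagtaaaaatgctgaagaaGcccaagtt
Rps3a2, on chromosome 14, differed from its parent at 7 of the 795 coding bases (99.1% identity), or at 4 of the 792 bases of its own annotated transcript, and 65.5% of its stretches of 75 bases, the read length, also occur unchanged in the parent. Rps3a3, on chromosome 13, differed at 9 of 795 bases (98.9%), with 32.0% of such stretches shared. Tpm3-rs7, on chromosome 14, was 97.2% identical to Tpm3, with 58.9% shared. TPM for such copies depend on how the authors' counting divided shared reads, so their levels are uncertain.

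The copies also ran across litter labels in the Erbb3-FF mice. Rps3a3 was at 169 TPM in the library labelled Erbb3-FF mouse 3, litter A, and at 0.579, 1.03 and 1.04 TPM in mice 4, 5 and 6 of that litter. In Erbb3-FF mice 1 and 2, labelled litter B, it was at 2.41 and 1.05 TPM. Rps3a2 and Tpm3-rs7 shared this pattern, at 124 and 91.5 TPM in mouse 3 and at most 0.809 and 1.08 TPM in the other 5 Erbb3-FF libraries. So these copies were high in ERBB3-dIE mice 1, 2 and 3 and in that 1 Erbb3-FF library, and low in the other 8. Pcna-ps2, a copy of the replication clamp gene Pcna with 99.2% identity, was at 16.5, 13.1 and 33.6 TPM in ERBB3-dIE litter B and at most 0.397 TPM in the other 9 libraries. Mir684-1, annotated as a miRNA gene, was at 206, 631 and 306 TPM in ERBB3-dIE litter B and listed at 0 in litter A. Among the Erbb3-FF libraries it was at 289 TPM in mouse 1 and 187 TPM in mouse 4 and listed at 0 in the others.

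**Figure D5:**
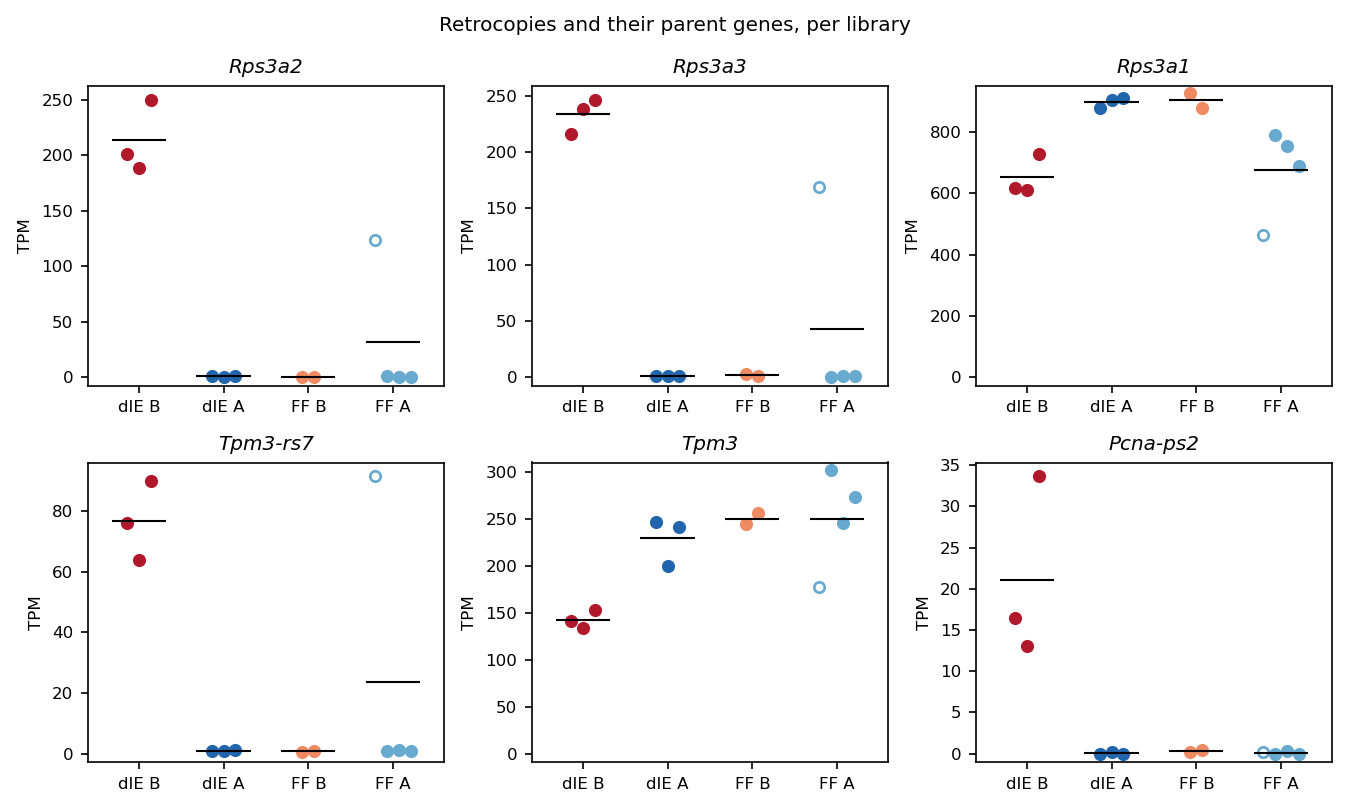
TPM per library of Rps3a2, Rps3a3 and Tpm3-rs7 beside their parents Rps3a1 and Tpm3, and of Pcna-ps2, on linear axes. The open circle is the library labelled Erbb3-FF mouse 3. Rps3a2, Rps3a3 and Tpm3-rs7 are at 64.0 TPM or above in ERBB3-dIE litter B and in that library and at 2.41 TPM or below in the other 8, while Pcna-ps2 is high in ERBB3-dIE litter B alone.

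Counted without regard to the test, 8 genes had at least 5 TPM in all 3 litter B mice and under 0.5 TPM in all 3 litter A mice, and 5 of them are annotated as pseudogenes. The reverse held for 12 genes, of which 7 are immunoglobulin heavy chain variable segments and 3 are pseudogenes of other kinds. No test was made on these counts.

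The same litter contrast in Erbb3-FF mice, fitted on its own 6 libraries with the same genes, called 6 genes (0.0466%), 5 higher and 1 lower in litter B. Without the library labelled mouse 3, 447 were called higher (3.47%) and 115 lower (0.893%). That library was set apart by its likeness to litter B in these same data. Leaving it out therefore favours a litter difference like that in ERBB3-dIE mice. Every fit without it is given as a description and supports nothing further. Of the calls made without that library, 190 higher genes were also called higher in ERBB3-dIE mice, which is 35.8% of the ERBB3-dIE calls and 42.5% of the Erbb3-FF calls. In the lower direction 21 were shared, 6.69% and 18.3% of the lists, and 3 genes were called in opposite directions. The contrasts share no library. In Erbb3-FF mice the median difference over all tested genes was 0.128, and 0.133 without mouse 3. The part of the high ribosomal share of Erbb3-FF mice 5 and 6 in this contrast was not tested. Of the 845 ERBB3-dIE calls, 83.4% had the same sign in Erbb3-FF mice, beside 65.9% of all tested genes. Without mouse 3 these shares were 88.5% and 70.3%.

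Single genes are given with and without mouse 3. Fabp6, Apoa1 and Lgr5 are among the values in which that library stood apart, so the p-values without it follow in part from leaving it out. Fabp6 was at 35207 and 35607 TPM in Erbb3-FF mice 1 and 2 of litter B, at 8689, 10690.1 and 9644 TPM in mice 4, 5 and 6 of litter A and at 45972 TPM in the library labelled mouse 3, litter A. The log2 difference in Erbb3-FF mice was 1.31 with mouse 3 (adjusted p = 0.53) and 1.88 without it (adjusted p = 0.0259). For Apoa1 the Erbb3-FF difference was 0.96 with mouse 3 and 1.3 without it (adjusted p = 0.037), and for Id2 it was 0.89 and 1.14 (adjusted p = 0.0316). Lgr5 was at 1.51 and 1.27 TPM in litter B, 5.61, 5.53 and 5.42 TPM in mice 4 to 6 of litter A and 0.617 TPM in mouse 3, with a difference of −1.07 with mouse 3 (adjusted p = 0.598) and −1.67 without it (adjusted p = 0.0258).

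For the matrix list the median in Erbb3-FF mice was 0.64, beside 0.128 over all tested genes. Without mouse 3 the list's median was 0.38 beside 0.133, and in ERBB3-dIE mice it was −1.39. Of its 25 members 0 passed the test of a difference between genotypes described next, and 1, Fn1, passed without mouse 3. Col3a1 was at 19.1 and 9.27 TPM in Erbb3-FF litter B, 1.14 TPM in mouse 3 and 13.1, 16.5 and 11.8 TPM in mice 4 to 6. B cell follicle genes were high only in Erbb3-FF mice 1, 2 and 3, with mean log2 levels of 5.51, 4.48 and 4.30, against 1.79 to 2.99 in the other 9 libraries, of which ERBB3-dIE litter B was at 2.04 to 2.99. Their part in the Erbb3-FF contrast was not tested.

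Whether the litter difference itself differed between genotypes was tested with an interaction term over all 12 libraries. It passed for 7 genes (0.0544%), and 1234 had an unadjusted p under 0.05. Without the library labelled Erbb3-FF mouse 3 it passed for 46 (0.357%), of which 38 had a negative value, counted as ERBB3-dIE minus Erbb3-FF. Genes of B cells and lymphoid follicles are among the negative ones, such as Ighm, Cd79a, Cd79b and Cxcl13, and the B cell follicle list, high in Erbb3-FF mice 1, 2 and 3, had 4 of its 9 tested members called there. The part of such cells in the count was not tested. Among the positive ones were the copies Tpm3-rs7 and Rps3a3 (limma adjusted p = 4.95e-05 for each) and Rps3a2 (0.00233). With mouse 3 kept, these copies did not pass (limma adjusted p = 0.231, 0.248 and 0.219). Mouse 3 was high in these copies, and they passed the filter only with ERBB3-dIE litter B. The smaller p-values without mouse 3 therefore support nothing further. Of the 7, the named genes were Pcna-ps2, Trf, Bgn, Pla2g7 and Serping1, with Gm5641 and Gm44379 as predicted genes. Bgn, the matrix proteoglycan biglycan, was at 3.54, 2.85 and 2.28 TPM in ERBB3-dIE litter B and 11.7, 19.1 and 8.72 TPM in litter A, and at 18.8 and 15.2 TPM in Erbb3-FF litter B and 6.53, 7.15, 8.7 and 4.57 TPM in litter A. Its litter difference was −1.96 in ERBB3-dIE and 1.3 in Erbb3-FF mice, a difference between genotypes of −3.26 (adjusted p = 0.0332, and 0.0211 without Erbb3-FF mouse 3, at the same value). Trf, the iron carrier transferrin, gave −2.75 (adjusted p = 0.0332) and −2.83 without that mouse. Serping1, an inhibitor of complement activation, gave −2.54 (adjusted p = 0.0418) and −2.48. Pla2g7, which encodes a phospholipase of macrophages, gave −2.31 and −2.42. All 4 passed in both fits. These were higher in litter A among ERBB3-dIE mice and higher in litter B among Erbb3-FF mice.

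None of the digestion, bile acid, interferon or crypt genes named above passed the interaction test, with or without mouse 3. For Fabp6 the interaction had an adjusted p of 0.742, for Sis 0.452, for Apol9b 0.648 and for Lgr5 0.978, and without mouse 3 these were 0.678, 0.451, 0.684 and 0.615. For those genes a difference between the genotypes in the size of the litter contrast was not shown, which does not show that the contrasts are alike. When only genes with 1 TPM in at least 6 of the 12 libraries were tested (12605), no gene passed the interaction (limma, smallest adjusted p 0.0688) and 1174 had an unadjusted p under 0.05. Without Erbb3-FF mouse 3, 36 passed under that filter, 33 of them negative.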

How the data were processed

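The authors deposited 1 table of TPM for 12 libraries, with Ensembl identifiers and symbols. Per the labels' protocols, RNA was prepared from scraped mucosa with an Omega Bio-Tek kit and sequenced from a stranded Illumina mRNA library on a NextSeq as single-end reads of 75 bases. Tools were Salmon 1.10.0, CASAVA and DESeq2 with the build GRCm39, per the submitters' processing notes. The annotation release is not given in the sources used here. TPM of each library sum to 1000000, so depth is unknown and no count model was fitted. The authors' own test columns, which compare genotypes, were not used here.

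Genes that reached 1 TPM in 3 or more of the 6 ERBB3-dIE libraries were tested on log2(TPM + 0.5) with limma 3.58.1 in R 4.3.3 (lmFit, eBayes with a variance trend, no covariate), with Benjamini-Hochberg adjustment and a threshold of 0.05. Values after ± are SD, and SE is limma's moderated standard error. Erbb3-FF libraries were fitted alone in the same way, and the interaction was fitted over all 12. The steps were tested on simulated data. Members and the 58 gene lists were chosen with earlier results of these data known, so lists are described by counts and medians and were not tested. Named are the 15 largest called differences in each direction with a mean of at least 5 TPM in 1 litter and no overlap, up to 4 called members per list (else the 2 of smallest p), cell type markers and the 6 interaction genes of smallest p. Predicted genes and variable segments were counted and not named, apart from Gm5641 and Gm44379 under the interaction rule. Serping1, Ighm, Cd79a, Cd79b, Cxcl13, Slc51a, Slc51b, Osr2, Abcc3, Nr1h4, Cubn, Mgam, Slc15a1, Mttp, Ifit1, Irf7, Irf9, B2m, Zg16, Fcgbp, Spink4, Rps3a1 and Tpm3 were added after their values were seen. Promoters are RefSeq (GRCm38.p6) and copies were compared in GENCODE M21 transcripts (GRCm38), which is not the build of the table. Figures were drawn with matplotlib 3.10.9. Results on some genes are not reported here.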

Additional observations from a re-analysis of the deposited data

Results flagged for a closer look

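A library far from the rest of its group was looked for in Erbb3-FF litter A, whose 4 libraries are enough for Dixon's test, over 17 values that the report uses. The measure is the gap of the farthest library to its nearest neighbour, divided by the range of the group. In 8 of the 17 values it exceeded the 95% critical value for 4 libraries, each time by the library labelled mouse 3. Chance passes about 1 group in 20, and the values are not independent. Mouse 3 was the highest library for the mean level of the genes called higher in ERBB3-dIE litter B (0.897) and for Fabp6 (0.876), Apoa1 (0.836), Clca1 (0.852), Rps3a3 (0.929) and Tpm3-rs7 (0.947). It was the lowest for Col3a1 (0.862) and Lgr5 (0.981). For each of these the library lay on the side of ERBB3-dIE litter B.

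The litter difference differed between the genotypes, by the interaction term, for 7 genes. Given as the log2 difference in ERBB3-dIE minus that in Erbb3-FF mice, it was 5.62 for Gm5641, 4.77 for Pcna-ps2 and −5.19 for Gm44379. Gm5641 was at 17.4, 38.6 and 21 TPM in ERBB3-dIE litter B, Gm44379 was at 29.8, 14 and 13.3 TPM in ERBB3-dIE litter A, and both were listed at 0 in the other 9 libraries. These 3 genes were tested only because 1 ERBB3-dIE litter reached 1 TPM, and when 1 TPM was required in 6 of the 12 libraries no gene passed (limma, 1174 at an unadjusted p under 0.05), or 36 without Erbb3-FF mouse 3. It was −3.26 for Bgn, −2.75 for Trf, −2.54 for Serping1 and −2.31 for Pla2g7, and in each of these 4 the ERBB3-dIE litters did not overlap.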

How the results depend on the processing

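With 3 mice per litter the calls are limited by the spread between mice, and each depends on which mice are in the fit. In fits without 1 mouse 28 to 697 genes were called higher and 17 to 1029 lower in ERBB3-dIE litter B. Without a filter on low values there were 104 and 48, with library weights 958 and 865, with the smooth muscle list as a covariate 6 and 7, and without mice 4 and 5 together 11 and 16. Rescaling without mitochondrial and ribosomal sequence gave 520 lower, and the median of all genes was −0.17. Other pseudocounts, the filter at 5 TPM, trimmed mean or quantile scaling, robust variance and a model of all 12 libraries gave 442 to 594 higher and 216 to 326 lower. All calls that could be fitted kept their sign in all 18 settings. The cause of the other changes was not tested. Of 58 list medians 16 changed sign in at least 1 setting, among them those of T cells, Paneth cells, tuft cells, cholesterol synthesis, ribosomal proteins and ErbB genes, and no direction is read from them. The interaction calls were 3 to 46 in fits without 1 library, 2 without ERBB3-dIE mice 4 and 5, and 0 when 1 TPM was required in 6 of 12 libraries, or 36 with that filter and Erbb3-FF mouse 3 left out, added after the data were seen. With mouse number as a replicate block 11 genes passed instead of 7. The labels do not say whether equal numbers pair mice. Deviations of same-numbered ERBB3-dIE and Erbb3-FF mice from their group means correlated at −0.252 to 0.153, over 0.1 for 1 of 6 numbers, and 2 of 6 correlated best with their own number. This cannot decide pairing, since Erbb3-FF litter B holds 2 mice, whose deviations mirror each other, and the mice numbered 3 are in different litters. In Erbb3-FF mice the litter calls were 7 to 562 without 1 library, the highest without mouse 3, and 6 under trimmed mean scaling, which was added after the data were seen.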

Other observations

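Enteroendocrine cells, which release gut hormones, had 3 of 18 tested marker genes higher and 1 lower in ERBB3-dIE litter B. Over all tested genes these shares were 4.12% and 2.44%. The list was split, with 10 positive and 8 negative differences and a median of 0.14. Its general markers were not higher: Chga overlapped (−0.14), and Chgb was wholly below in litter B but did not pass (−0.62, limma adjusted p = 0.0814). Gip, a hormone gene of the upper small intestine, was at 16.3, 12.4 and 3.84 TPM in litter B and 0, 0.17 and 0 TPM in litter A (log2 difference 4.15, limma adjusted p = 0.0161). Gip entered the test only through litter B, so its call adds little to these values. In Erbb3-FF mice it was at 17.2 and 9.12 TPM in litter B, at 11.8 TPM in the library labelled mouse 3 and listed at 0 in mice 4 to 6. Sst, somatostatin, was at 68.7, 75.8 and 64.5 TPM against 21.5, 32.8 and 24.7 TPM (1.4), and Nts, neurotensin, at 199, 189.6 and 136 TPM against 67.9, 63.2 and 89.9 TPM (1.24). Tac1, a tachykinin gene, was lower in litter B, at 6.8, 7.46 and 16.1 TPM against 39.2, 26.8 and 40.4 TPM (−1.84). Guca2b, which encodes the gut peptide uroguanylin, was at 1378, 918 and 561 TPM against 136, 187 and 252 TPM (2.26).

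Transcription factor genes that rise with ERK signalling, Etv4 and Etv5, were lower in litter B by −2.08 and −1.93, and they were the called members of 13 ERK feedback genes. Among PI3K and FoxO genes Pik3r3 was lower (−1.57) and Trib1 higher (0.72). Of 26 tight junction genes Amotl2 (1.42) and Marveld2, tricellulin (0.61), were higher, and Ildr1, which encodes a partner of tricellulin, was lower (−2.0). Beside these small counts stand 4.12% of all tested genes called higher and 2.44% called lower. Glycolytic genes Hk1 and Pfkl were lower by −1.21 and −1.37, while Bnip3, a hypoxia-induced mitophagy gene, was higher, at 17.5, 14.5 and 15.1 TPM against 4.45, 4.15 and 4.18 TPM (1.76). The ribosomal RNA gene mt-Rnr1 was the called member of 15 mitochondrially encoded genes, and it was higher in litter B (0.94) although the median of the list was −0.80. No member was called among cholesterol synthesis (24), tuft cell (15), Notch and secretory fate (16), immediate early (19), heat shock (13), adherens junction (24), nuclear respiratory chain (33) or cytosolic ribosomal protein genes (40).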
